A study of Mus musculus with 12 samples.

Results

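The genes described here are 10 enzymes that handle alcohol, aldehyde or acetate, chosen by name: Adh1, Adh5, Adh7, Aldh1a1, Aldh2, Aldh1b1, Cat, Cyp2e1, Acss1 and Acss2. They are 10 of the 19938 genes that had a single symbol in the array's annotation, and each was read by 1 probe set. RNA of anterior striata was measured on 12 arrays, from male Swiss CD-1 mice (outbred) at adolescent age. The mice had gone through a 10-day place preference procedure, in which drugs were given 15 minutes before placement in the drug-paired compartment. There were 3 arrays each for saline, for ethanol, for mephedrone (a synthetic cathinone stimulant) and for mephedrone + ethanol, called the combination from here on. The labels state no dose, no hour of collection and not whether each array is a separate animal, so the p-values measure only how these samples vary, and that variation may be technical.

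Ethanol is oxidised to acetaldehyde and then to acetate. In liver the cytosolic alcohol dehydrogenases carry most of the first step, whereas in brain catalase, a peroxisomal enzyme that uses hydrogen peroxide, and the microsomal cytochrome CYP2E1 are the better known routes. Aldehyde dehydrogenases, above all the mitochondrial ALDH2, remove the acetaldehyde, and acyl-CoA synthetases join acetate to coenzyme A for the citric acid cycle, lipid synthesis or histone acetylation.

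Every value is a log2 difference of an array from the median of that probe set over the 12 arrays, so levels of different genes cannot be set against each other. The size of the numerical steps in the table shows which probe sets were at 8 or more on the original log2 scale on every array, as 51.2% of the probe sets with a single symbol were. Among the 10 genes these were Adh5, Aldh2, Aldh1b1, Cat, Acss1 and Acss2. Adh1, Adh7, Aldh1a1 and Cyp2e1 were between 4 and 8 on at least 1 array. The signal of a probe also depends on its sequence, so these classes are not a ranking of transcripts. Of 12 markers of striatal projection neurons on the array, 12 were at 8 or more.

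Several arrays differed in markers of other tissue. The mean of 12 choroid plexus markers reached 1.89 in combination replicate 3. Raised means were also found for saline replicate 2 (1.05), ethanol replicate 1 (0.80), combination replicate 2 (0.60) and mephedrone replicate 1 (0.59), and the remaining 7 arrays lay between -0.18 and -0.041. The mean of 9 cortical excitatory neuron markers was highest in combination replicate 3 (0.84), saline replicate 2 (0.39) and mephedrone replicate 2 (0.38). It was lowest in ethanol replicate 2 (-0.52) and saline replicate 1 (-0.41), and no fit used it as a covariate. The mean of 12 striatal projection neuron markers was lowest in combination replicate 3 (-0.32), then in ethanol replicate 1 (-0.19), and ran from -0.043 to 0.082 elsewhere. The 2 arrays lowest in striatal markers belong to ethanol-treated groups. Values without them are therefore given for the set and for Adh5, Aldh1a1, Aldh2, Cat and Acss1. For the same genes, values are also given from fits with a marker mean as a covariate. Saline replicate 2, higher than ethanol replicate 1 in choroid plexus markers, was left out only in the fits that drop 1 array at a time. In bulk tissue, fewer cells of a type and less RNA per cell cannot be told apart.

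The question of this set was whether ethanol-treated arrays differed from the others. In the ethanol main effect, which compares the mean of the ethanol and combination groups with the mean of the saline and mephedrone groups (6 arrays against 6), none of the 10 genes passed limma's moderated test with Benjamini-Hochberg adjustment over all genes. This was 0 of 10, and 0% of all genes passed as well. Acss1 and Aldh1a1 had an unadjusted p under 0.05, which is 2 of 10 against 4.57% of all genes. In none of the 10 did the ethanol-treated arrays lie wholly on 1 side of the others (0.115% of all genes). The median of the 10 log2 differences was 0.035, with 9 above 0 and 1 below, while the median over all genes was 0.0088 with 58.8% above 0. It depended on single arrays: the median was 0.016 with 8 of 10 above 0 without combination replicate 3, 0.016 with 7 above 0 without ethanol replicate 1, and 0.023 with 8 above 0 without mephedrone replicate 2. It rose to 0.052 without mephedrone replicate 1 or combination replicate 2, 0.051 without ethanol replicate 3 and 0.044 without ethanol replicate 2. All 10 were above 0 without mephedrone replicate 3 or combination replicate 1. Without both combination replicate 3 and ethanol replicate 1 the median was 0.016 with 6 above 0, where 57.8% of all genes were above 0. Each of those arrays is ethanol-treated and held the highest value of 3 of the 10 genes, so leaving both out favours a lower median.

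**Figure D1:**
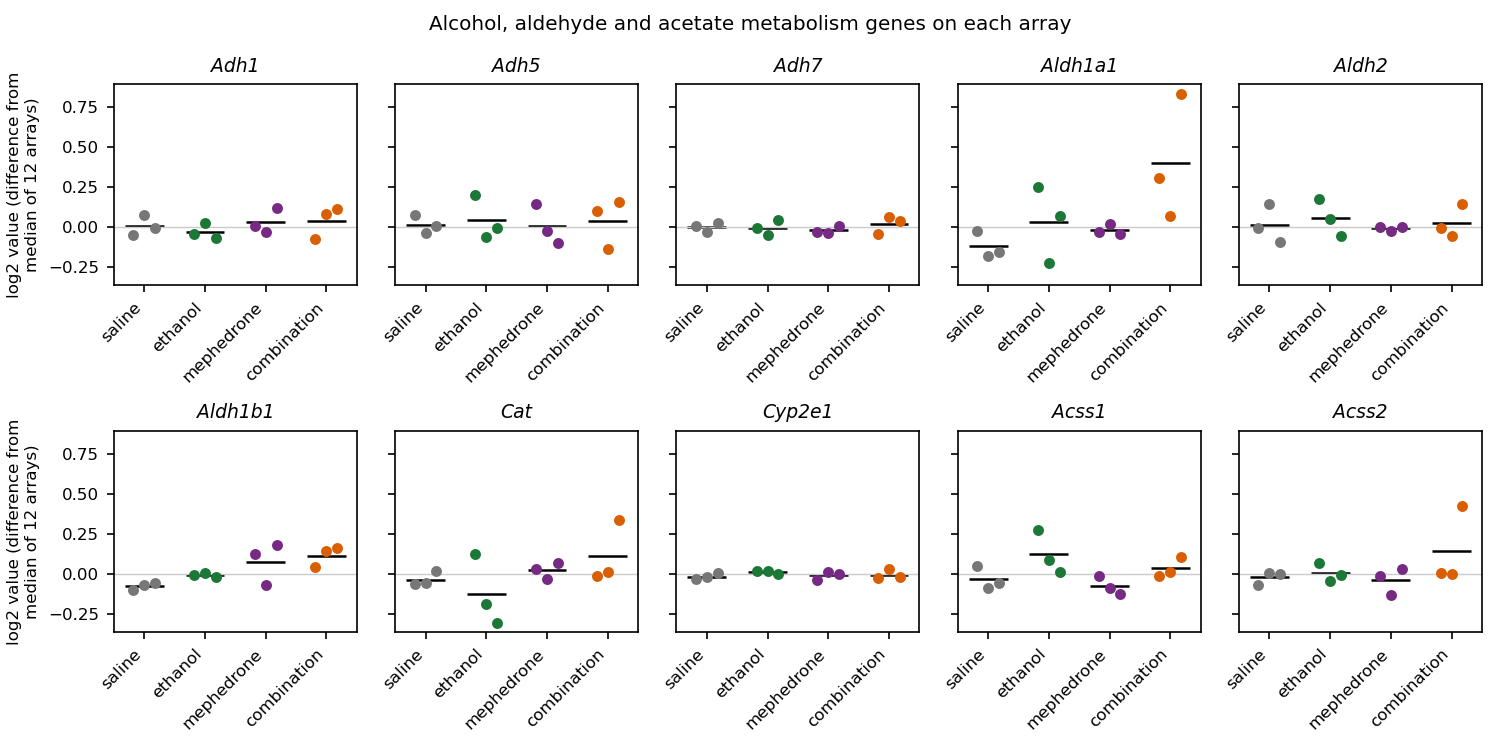
Log2 value of each of the 10 genes (vertical axis, difference from the median of 12 arrays) on each array, by treatment group (horizontal axis). Points are arrays and lines are means of 3 arrays. Aldh1a1 spans the widest range, up to 0.83 in the combination group, and Cyp2e1 the narrowest.

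The group means of the 3 alcohol dehydrogenases ran from -0.026 to 0.046, around the 0 on which each probe set was centred. Adh1 encodes the classical class I enzyme of liver, which oxidises ethanol. Its arrays read -0.049, 0.075, -0.007 (saline), -0.043, 0.030, -0.067 (ethanol), 0.007, -0.030, 0.12 (mephedrone) and -0.075, 0.082, 0.11 (combination). The groups overlapped throughout. Its ethanol main effect was -0.013 (SE 0.041, adjusted p = 0.979), with a 95% confidence interval from 0.931-fold to 1.06-fold.

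Adh7, the class IV enzyme known from stomach epithelium and retinol oxidation, had group means that lay closer together than those of Adh1. They were 0.0021 ± 0.028 (SD, n = 3) for saline, -0.0031 ± 0.045 for ethanol, -0.018 ± 0.024 for mephedrone, and 0.021 ± 0.053 for the combination. Its range over the arrays lay at percentile 5.77 of all genes. Its ethanol main effect was 0.017 (SE 0.027, adjusted p = 0.955), with an interval from 0.971-fold to 1.05-fold. Adh5 encodes the class III enzyme, which acts as a formaldehyde dehydrogenase with glutathione and is expressed in most tissues. It varied more between arrays, from -0.13 in combination replicate 2 to 0.20 in ethanol replicate 1, and every group held arrays on both sides of 0. Its range lay at percentile 78.1 of all genes and its residual SD at percentile 90.1. The ethanol main effect of Adh5 was 0.033 (SE 0.063, adjusted p = 0.965), with an interval from 0.929-fold to 1.13-fold. In the RefSeq order of protein-coding genes Adh7, Adh1 and Adh5 are the first, second and sixth of a run of 6 alcohol dehydrogenase genes. The 3 between them, Adh6a, Adh6b and Adh4, had ethanol main effects of 0.0080, -0.0038 and 0.036, and none of them passed.

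The 2 oxidation routes that do not use alcohol dehydrogenase differed in their spread. Cyp2e1 had the narrowest range of the 10 genes over the arrays, 0.074 in log2, which lay at percentile 1.04 of all genes. Its arrays read -0.035, -0.018, 0.003 (saline), 0.017, 0.019, -0.002 (ethanol), -0.041, 0.012, 0.002 (mephedrone) and -0.029, 0.033, -0.019 (combination). The ethanol and saline arrays overlapped, and the ethanol main effect was 0.016 (SE 0.023, adjusted p = 0.947), with an interval from 0.977-fold to 1.05-fold. Its probe set was among those below 8 before centring, and whether weak signal narrowed its range was not tested.

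Cat, which encodes catalase, ranged over 0.64 in log2, at percentile 95.9 of all genes. Its arrays read -0.066, -0.058, 0.015 (saline), 0.12, -0.19, -0.30 (ethanol), 0.030, -0.031, 0.067 (mephedrone) and -0.011, 0.011, 0.34 (combination). The ethanol group thus held both the lowest and the second-highest of the 12 values, and the highest was combination replicate 3. The ethanol main effect was 0.0013 (SE 0.076, adjusted p = 0.998), with an interval from 0.892-fold to 1.12-fold. Without combination replicate 3 and ethanol replicate 1, the arrays lowest in striatal markers, it was -0.12 (95% interval -0.19 to -0.042, unadjusted p = 0.00595 in limma), and the adjusted p of 0.983 did not pass. Those 2 arrays also held the 2 highest Cat values, and both are ethanol-treated. Leaving them out lowers the difference by construction, so that interval and p do not measure an effect of ethanol. Over 23 settings Cat changed sign in 11, and this was the 1 with an unadjusted p under 0.05. Against saline, ethanol alone gave -0.088 (SE 0.11) for Cat, and the combination against mephedrone gave 0.090 (SE 0.11). The difference between those 2, the interaction, was 0.18 (SE 0.15, adjusted p = 1.00).

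**Figure D2:**
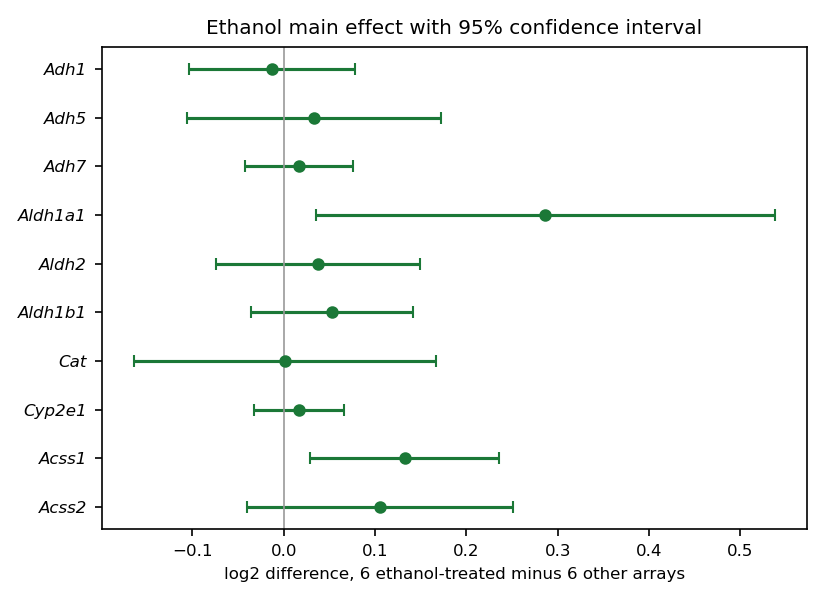
Ethanol main effect of each of the 10 genes: points are log2 differences (horizontal axis, 6 ethanol-treated minus 6 other arrays) and bars are 95% confidence intervals from limma, not adjusted for the number of genes. The bars of Aldh1a1 and Acss1 lie above 0, and those of the other 8 genes cross it.

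Aldh1a1 had the largest ethanol main effect of the 10 genes. It encodes a cytosolic retinal dehydrogenase that also oxidises acetaldehyde and is a known marker of a subset of dopamine neurons. Its arrays read -0.022, -0.18, -0.15 (saline), 0.25, -0.22, 0.073 (ethanol), -0.032, 0.022, -0.041 (mephedrone) and 0.31, 0.072, 0.83 (combination). All 3 combination arrays were above every saline and mephedrone array, whereas the ethanol arrays held both the lowest value of all 12 and the third-highest. The ethanol main effect was 0.29 (SE 0.115, 1.22-fold with a 95% interval from 1.02 to 1.45, adjusted p = 0.941). A two-sided exact permutation test of that difference over all 924 assignments of 6 arrays gave p = 0.0519, where 0.00216 is the smallest possible, and was 1 of 10 such tests. The assignments took no account of which arrays had mephedrone.

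Aldh1a1 was 0.15 higher in ethanol than in saline (SE 0.16, adjusted p = 1.00) and 0.42 higher in the combination than in mephedrone (SE 0.16, 1.34-fold, adjusted p = 0.992). The interaction was 0.27 (95% interval -0.23 to 0.77), so the ethanol difference with and without mephedrone was not shown to be unequal. The value leaned on combination replicate 3: without it the ethanol main effect was 0.18 and the combination against mephedrone 0.21. Without that array and ethanol replicate 1 the ethanol main effect was 0.12 (95% interval -0.016 to 0.26). Those arrays held the highest and the third-highest Aldh1a1 values (0.83 and 0.25), and both are ethanol-treated. Leaving them out therefore lowers the difference by construction. In combination replicate 3 the marker means were also 0.84 for 9 cortical excitatory neuron genes, 0.53 for 12 oligodendrocyte genes and 0.20 for 13 astrocyte genes, and their part in the Aldh1a1 value was not tested. With the choroid plexus mean as a covariate the ethanol main effect was 0.22 and the combination against mephedrone 0.28; with the striatal mean they were 0.17 and 0.19. None of these passed. The mean of 7 dopamine neuron markers, of which 2 were at 8 or more before centring, was -0.050 in combination replicate 3. It ran from -0.12 to 0.074 on the other arrays, and its part in the Aldh1a1 value was not tested.

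Over the 12 arrays the 3 genes whose pattern was most like that of Aldh1a1 by Pearson's r were Pon2 (r = 0.96, Spearman's rho = 0.85), Olfm2 (0.95, 0.91) and Cmbl (0.95, 0.85). Without combination replicate 3 their r was 0.88, 0.88 and 0.92. For Cat they were Imp3 (r = 0.95, rho = 0.90), Trp53inp1 (0.94, 0.84) and Derl1 (0.93, 0.90), with r = 0.91, 0.89 and 0.88 without that array. These genes were picked as the highest of all genes, so the values describe the pick and carry no test.

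Aldh1a7, a close relative of Aldh1a1 whose transcript could share probe signal with it, was the companion gene with the smallest p in the ethanol main effect. Its arrays read -0.075, -0.13, -0.16 (saline), 0.057, 0.053, 0.040 (ethanol), 0.001, -0.046, 0.019 (mephedrone) and 0.023, -0.001, -0.016 (combination). The ethanol arrays were thus above all others, and the saline arrays below all others, while mephedrone and combination overlapped. The ethanol main effect was 0.091 (SE 0.024, unadjusted p = 0.00267, adjusted p = 0.941). It averages unlike values: ethanol against saline was 0.17 (unadjusted p = 0.000308, adjusted p = 0.997) and the combination against mephedrone 0.010 (unadjusted p = 0.766). The interaction was -0.16 (SE 0.048, unadjusted p = 0.00577 in limma, adjusted p = 1.00) and did not pass. In combination replicate 3, where Aldh1a1 was highest, Aldh1a7 was at -0.016.

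Aldh2, the mitochondrial enzyme that clears most acetaldehyde, had group means of 0.017 ± 0.12 (SD, n = 3) for saline, 0.060 ± 0.12 for ethanol, -0.0036 ± 0.014 for mephedrone, and 0.028 ± 0.10 for the combination. The highest arrays were ethanol replicate 1 at 0.18, saline replicate 2 at 0.14 and combination replicate 3 at 0.14, 3 of the 5 arrays with raised choroid plexus markers. The other 2, combination replicate 2 and mephedrone replicate 1, were at -0.053 and 0.005. The ethanol main effect was 0.037 (SE 0.051, adjusted p = 0.947), with an interval from 0.950-fold to 1.11-fold.

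Aldh1b1 encodes another mitochondrial aldehyde dehydrogenase, close in sequence to ALDH2. Its arrays read -0.10, -0.071, -0.055 (saline), -0.006, 0.006, -0.019 (ethanol), 0.12, -0.070, 0.18 (mephedrone) and 0.043, 0.14, 0.16 (combination). The 3 saline arrays were below all ethanol and all combination arrays, and mephedrone replicate 2 lay among them. Its ethanol main effect was 0.053 (SE 0.040, adjusted p = 0.941), and its mephedrone main effect was larger, at 0.14 (SE 0.040, 1.10-fold, adjusted p = 0.172). The combination against saline was 0.19 (SE 0.057, 1.14-fold, adjusted p = 0.241). Neither passed.

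The acetate-activating pair came last in the pathway. Acss1, the mitochondrial synthetase that feeds acetate into the citric acid cycle, had the smallest p of the 10 genes in the ethanol main effect. Its arrays read 0.051, -0.091, -0.059 (saline), 0.28, 0.083, 0.010 (ethanol), -0.010, -0.086, -0.12 (mephedrone) and -0.012, 0.011, 0.11 (combination). All 6 ethanol-treated arrays were above the median of the others (-0.073), but saline replicate 1 exceeded 3 of them. The ethanol main effect was 0.13 (SE 0.047, 1.10-fold with a 95% interval from 1.02 to 1.18, unadjusted p = 0.0164, adjusted p = 0.941). The exact two-sided permutation test over 924 assignments, which took no account of mephedrone, gave p = 0.0173, again 1 of 10 such tests.

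Acss1 was 0.16 higher in ethanol than in saline (SE 0.067, adjusted p = 0.997) and 0.11 higher in the combination than in mephedrone (SE 0.067, adjusted p = 0.992), with an interaction of -0.048 (SE 0.094). Without ethanol replicate 1 the ethanol main effect was 0.094 and ethanol against saline 0.080. Without that array and combination replicate 3 the ethanol main effect was 0.076 (95% interval -0.0051 to 0.16). Those arrays held the highest and second-highest Acss1 values (0.28 and 0.11), and both are ethanol-treated. Leaving them out therefore lowers the difference by construction. With the choroid plexus or striatal marker mean as a covariate the ethanol main effect was 0.11 and 0.098. Over 23 settings its unadjusted p in limma was under 0.05 in 22, and the smallest adjusted p was 0.748. In several marker lists most members lay on 1 side, with 0 markers passing: 12 of 12 choroid plexus markers were above 0 in the ethanol main effect (median 0.34), as were 11 of 12 of oligodendrocytes (0.074) and 12 of 13 of astrocytes (0.063). Of the 12 striatal projection neuron markers 10 were below 0 (-0.081). The share of all genes above 0 in that main effect was 58.8%. The choroid plexus and oligodendrocyte medians went opposite ways without and with mephedrone. In ethanol against saline 8 of 12 choroid plexus (median -0.082) and 11 of 12 oligodendrocyte markers (-0.052) were below 0, while 58.9% of all genes were above 0. In the combination against mephedrone 12 of 12 of each were above 0 (0.60 and 0.24), against 51.9% of all genes. Other medians also changed sign: cortical excitatory neurons (-0.017 and 0.18), meninges and fibroblasts (-0.037 and 0.036), endothelium (0.057 and -0.061) and dopamine neurons (0.081 and -0.014). Those of astrocytes, microglia, striatal projection neurons and red blood cells kept their sign. Of the astrocyte markers 11 of 13 were above 0 in both comparisons (0.069 and 0.052). The mean of the astrocyte markers was highest in combination replicate 3 at 0.20 and ethanol replicate 1 at 0.10, and ran from -0.023 to 0.033 in the other ethanol-treated arrays and from -0.096 to 0.015 in the arrays without ethanol. The part of the astrocyte and oligodendrocyte markers in the Acss1 value was not tested.

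Acss2 encodes the synthetase of cytosol and nucleus, which supplies acetyl-CoA for lipids and histones. Its arrays read -0.069, 0.005, -0.002 (saline), 0.067, -0.043, -0.005 (ethanol), -0.013, -0.13, 0.030 (mephedrone) and 0.008, 0.002, 0.42 (combination). A single array, combination replicate 3, stood away from the other 11. The ethanol main effect was 0.11 (SE 0.067, adjusted p = 0.941) with all arrays and 0.036 without that one.

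**Figure D3:**
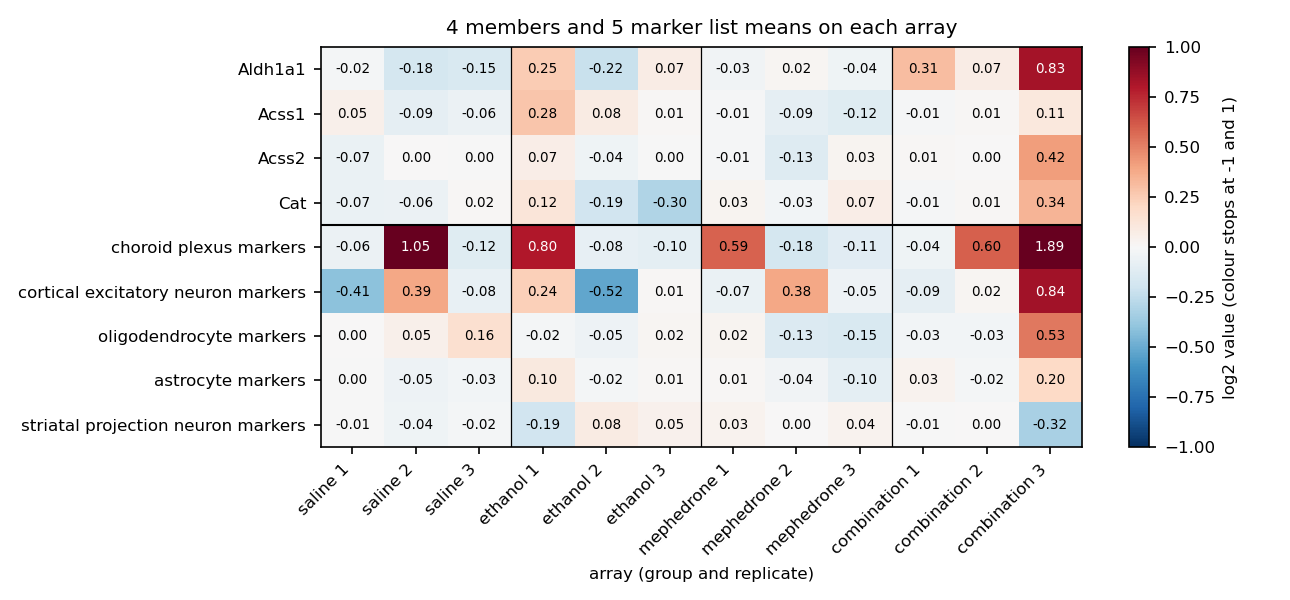
Log2 values of Aldh1a1, Acss1, Acss2 and Cat (upper 4 rows) and mean log2 values of 5 lists of cell type markers (lower 5 rows) on each of the 12 arrays (columns). Combination replicate 3 holds the highest value of Aldh1a1 (0.83), Acss2 (0.42) and Cat (0.34) and also of the choroid plexus markers (1.89).

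The promoters of the 3 genes with the highest ethanol main effects show the sequence context of those starts. RefSeq windows (build GRCm38.p6) were matched by symbol for 9 of the 10 genes, with 11 starts in all, and the 120 bases before each start were searched on both strands for 3 motifs. These were TATAAA (the TATA box), GGGCGG (the GC box) and the CCAAT box. In the lines that follow, 5′ to 3′ on the gene's strand, capitals mark a match, also where it reads on the opposite strand (CCGCCC or ATTGG). The Aldh1a1 stretch is chr19:20601848-20601967 (plus strand, the second of its 2 starts), the Acss1 stretch chr2:150668241-150668360 (minus strand) and the Acss2 stretch chr2:155517923-155518042 (plus strand).
Aldh1a1: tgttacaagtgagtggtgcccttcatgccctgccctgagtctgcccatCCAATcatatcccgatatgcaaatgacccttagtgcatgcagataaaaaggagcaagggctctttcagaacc
Acss1: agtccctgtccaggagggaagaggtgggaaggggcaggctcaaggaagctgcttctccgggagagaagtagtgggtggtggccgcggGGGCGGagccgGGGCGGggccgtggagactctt
Acss2: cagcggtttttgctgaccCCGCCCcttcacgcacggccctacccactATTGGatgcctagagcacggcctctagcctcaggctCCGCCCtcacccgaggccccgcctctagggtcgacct

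The Aldh1a1 stretch held 1 CCAAT, whose first base lay 72 bases before the start, and 1 CG pair. The stretch before the first Aldh1a1 start, which is not shown, held none of the 3 motifs. That of Acss1 held 2 copies of GGGCGG and 7 CG pairs, and that of Acss2 held 2 copies of GGGCGG, 1 CCAAT and 9 CG pairs. Of 32851 windows of the same length, 21.3% held CCAAT, 26.5% held GGGCGG and 6.34% held TATAAA. Of the 9 genes searched, TATAAA was found in Cyp2e1 alone, 31 bases before its start. A match is a run of letters and not a shown binding site, and the arrays hold no measurement at these promoters.

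Set side by side, the ethanol differences without and with mephedrone were each small for most of the genes. In ethanol against saline 0 of 10 passed the adjusted test (0% of all genes), 1 of 10, Acss1, had an unadjusted p under 0.05 (4.98% of all genes), and in 1 of 10, Aldh1b1, the groups did not overlap (8.55% of all genes). In the combination against mephedrone 0 of 10 passed (0% of all genes), and Aldh1a1 alone of the 10 had an unadjusted p under 0.05 (3.31% of all genes) and no overlap (9.38% of all genes). All 10 differences were above 0 there, with a median of 0.038, and 51.9% of all genes were above 0. Without combination replicate 3 this was 6 of 10, with a median of 0.013. Without mephedrone replicate 2 it was 8 of 10, with a median of 0.028. Leaving out another array raised that median: 0.071 (10 above 0) without combination replicate 1 and 0.096 (8 above 0) without combination replicate 2. It was 0.077 (8 above 0) without mephedrone replicate 1 and 0.068 (9 above 0) without mephedrone replicate 3. In ethanol against saline 7 were above and 3 below 0, with a median of 0.030. Without ethanol replicate 1 it was 4 above and 6 below, with a median of -0.0028, and without ethanol replicate 2 or 3 the median was 0.049 or 0.046. For the interaction 0 of 10 passed (0% of all genes), and 0 of 10 had an unadjusted p under 0.05 (3.54% of all genes).

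**Figure D4:**
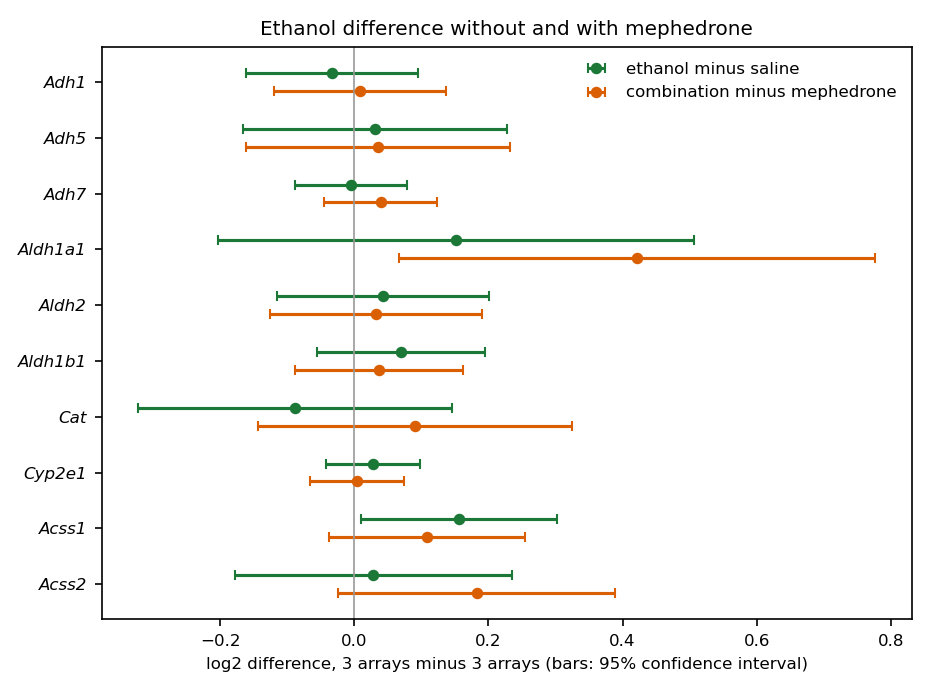
Log2 difference with ethanol for each of the 10 genes (horizontal axis) without mephedrone (ethanol minus saline, green) and with it (combination minus mephedrone, orange). Points are differences of means of 3 arrays and bars 95% confidence intervals. The orange bar of Aldh1a1 and the green bar of Acss1 lie above 0, and all others cross it.

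The combination against saline, where both drugs differ, shares its saline arrays with ethanol against saline and its combination arrays with the combination against mephedrone, so the 3 are not independent. It also had 0 of 10 past the adjusted test (0.0100% of all genes). Aldh1b1 and Aldh1a1 had an unadjusted p under 0.05, 2 of 10 against 12.1% of all genes, and the same pair had no overlap, against 17.4% of all genes. Aldh1a1 was 0.52 higher there (SE 0.16, 1.44-fold, adjusted p = 0.254) and 0.31 higher without combination replicate 3. In the mephedrone main effect 0 of 10 passed (0.115% of all genes), 1 of 10, Aldh1b1, had an unadjusted p under 0.05 (12.6% of all genes) and 0 of 10 lacked overlap (1.27% of all genes). A moderated F test for any difference among the 4 groups passed for 0 of 10 (0.00502% of all genes), with the smallest adjusted p, 0.533, for Aldh1b1.

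Other genes of the pathway were taken from a list of 61, of which 55 were on the array with a single symbol. In the ethanol main effect 0 of 55 passed over all genes, 6 had an unadjusted p under 0.05 (4.57% of all genes), and the median was 0.021 with 38 above and 17 below 0 (58.8% of all genes above 0). Without combination replicate 3 these were 3 genes and a median of 0.012. Leaving out saline replicate 3, mephedrone replicate 2 or mephedrone replicate 3 also gave 3 genes. The count rose to 7 without ethanol replicate 2 and to 8 without saline replicate 1. Ethanol against saline and the combination against mephedrone also had 0 of 55 past the test, with 4 and 1 at an unadjusted p under 0.05, where the shares of all genes were 4.98% and 3.31%. With 1 array left out the first count ran from 2 (saline replicate 2) to 7 (saline replicate 1), and the second from 0 (combination replicate 3 or mephedrone replicate 2) to 4 (combination replicate 1 or 2). Of 17 further aldehyde dehydrogenases, 13 were above 0 in the ethanol main effect, from -0.10 for Aldh1a2, which makes retinoic acid, to 0.12 for Aldh3b2. In ethanol against saline Aldh3b2 was at 0.33 (SE 0.15, unadjusted p = 0.0533, adjusted p = 0.997), above the 0.15 of Aldh1a1, and in the combination against mephedrone at -0.086. Of 14 genes of acetate and acetyl-CoA use, 11 were above 0, up to 0.088 for Acot7, an acyl-CoA thioesterase. The 11 measured genes of peroxide handling and electron transfer ran from -0.034 for Gpx1, a glutathione peroxidase, to 0.065 for Cyb5r3, a cytochrome b5 reductase.

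Aldh18a1, which makes a precursor of proline, was the second companion by p. Its group means were -0.070 for saline, 0.058 for ethanol, -0.048 for mephedrone, and 0.038 for the combination, and its ethanol main effect was 0.11 (SE 0.037, unadjusted p = 0.0136, adjusted p = 0.941).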

How the data were processed

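Total RNA was read on 12 Affymetrix whole-transcript arrays. The deposited table holds log2 values of 28853 probe sets. Per the submitters' processing notes the authors used RMA and build mm8, and the series text names GeneSpring GX 7.3.1. The centring of each probe set on its median over the 12 arrays is described in neither; it was read from the values, whose probe set medians are 0 within 7.02e-07, as was the log2 scale. Background, probe filters and scan batches were not given in the sources used here.

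Values were used as deposited. Symbols came from the platform annotation: 21789 probe sets carry 1 symbol, 1621 several and 5443 none. Probe sets of a gene were averaged, giving 19938 genes. A model with 1 mean per group was fitted over the 12 arrays (limma 3.58.1, R 4.3.3; 8 residual and 3.43 prior degrees of freedom), two-sided, with Benjamini-Hochberg adjustment over all genes and a threshold of 0.05. Intervals are 95% and from that fit. Precision is limited by how many arrays each group has.

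Single-precision numbers from 8 to 16 and from 4 to 8 step differently, which gave the signal classes (step tolerance 0.05). The gene set, companion and marker lists were chosen with earlier results of these data known. All 10 members were named; of the companions, the 2 with the smallest p; for likeness, the 3 genes with the highest r for the 2 members with the widest range. Further companions are named as ends of a range or as neighbours in the alcohol dehydrogenase run, chosen after their values were seen.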

Additional observations from a re-analysis of the deposited data

How the results depend on the processing

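In each of 24 alternative settings, 0 of 10 genes passed in any comparison tried there, and 0 of 55 companions passed in the 3 ethanol comparisons. The settings were the replicate block, leaving out each array, single probe sets, medians of probe sets, 2 normalisations, array weights, the compared arrays alone, both arrays lowest in striatal markers left out, 2 marker covariates, the brighter probe sets and robust moderation. A fit of the compared arrays alone does not apply to effects over all arrays, and the brighter probe sets leave out Adh1, Adh7, Aldh1a1 and Cyp2e1. The smallest adjusted p of any gene followed was 0.0838, for Aldh1b1 in the mephedrone main effect.

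In the ethanol main effect Adh7, Aldh1a1, Aldh1b1, Cyp2e1, Acss1 and Acss2 stayed above 0 in all settings, with Aldh1a1 from 0.12 to 0.37 and Acss1 from 0.076 to 0.16. The other 4 genes, none of them past the test, changed sign in some, and the cause was not tested. Some settings could not change a log2 difference of these genes. These were single probe sets, medians of probe sets, the brighter probe sets, robust moderation and the replicate block. Each gene has 1 probe set, and each group holds every replicate number once. Leaving out 1 array gave -0.031 to 0.016 for Adh1, -0.0067 to 0.077 for Adh5 and -0.060 to 0.046 for Cat. With both arrays lowest in striatal markers left out, values were -0.036 for Adh5, -0.021 for Aldh2 and -0.12 for Cat. Both arrays are ethanol-treated and read high for these genes, as for Adh5 (0.20 and 0.16) and Aldh2 (0.18 and 0.14). Leaving them out therefore lowers these differences by construction. With the striatal projection neuron covariate the values of the same genes were -0.013, -0.0029 and -0.076. Array weights gave -0.0088 for Aldh2 and -0.088 for Cat. Cat was also -0.052 with quantile normalisation, -0.0036 with arrays centred on their median and -0.047 with the choroid plexus covariate.

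The replicate numbers of the labels were not shown to pair the arrays: of 18 same-number pairs across groups, 7 had a correlation of deviations over 0.1 (-0.28 to 0.43). The mean correlation was 0.024 for same-number pairs and -0.0073 for pairs with different numbers. With the replicate block the Aldh1a1 value stayed at 0.29, as it must in this balanced layout (adjusted p = 0.911), and 0 of 10 passed.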
